A study of Danio rerio with 6 samples.

Results

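The claudins and the other membrane and scaffold genes of the tight junction were compared between wild-type and *panx1a* knockout zebrafish larvae. Members were taken by gene symbol as every claudin (cldn), occludin (ocln), MARVEL domain (marveld), zonula occludens (tjp) and junctional adhesion molecule (f11r and jam) gene of the deposited count tables. These were 44 of the 15336 genes listed. They comprised 29 claudins, 2 genes with a claudin domain (*cldnd1a* and *cldnd1b*), 5 MARVEL genes, 3 zonula occludens (ZO) scaffolds and 5 junctional adhesion molecules (JAMs).

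Total RNA of whole, untreated larvae at 6 days post fertilization was sequenced in 6 libraries. Of these, 3 came from wild-type larvae of the TL strain, called TL controls, and 3 from panx1a-/- larvae of the same strain. The knockout line descends from a single TALEN-edited founder fish with a short frameshift deletion in *panx1a* and is homozygous. Every cell of the larva carries the mutation, so whole-larva RNA cannot place a difference in a tissue. The sources used here do not say how many larvae went into a library, nor that the libraries came from separate clutches, so the p-values measure the spread between these libraries, which may be technical.

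Tight junctions seal the space between neighbouring epithelial cells near their apical side. Claudins polymerize into the strands of the junction and set which ions and solutes pass, with some members sealing and others forming pores. Occludin and the related MARVEL proteins sit in the same strands, JAMs are immunoglobulin-type adhesion proteins beside them, and ZO proteins tie all of these to the actin cytoskeleton. In fish larvae such junctions line the skin, gut, kidney tubules, inner ear and vessels, and a few claudins belong to myelinating glia.

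Reads counted on genes lay between 13054759 and 21472044 per library. The depth could show levels down to 0.155 to 0.209 CPM (counts per 1000000 reads on genes, with library sizes scaled by edgeR's TMM factors), taken as 3 counts and covering counting error only. Counts of *panx1a* itself were 110, 114 and 147 for the TL controls against 22, 17 and 13 for the panx1a-/- libraries, which went with the labels. Reads matched to no annotated gene were 30.2% to 42.9% of uniquely aligned reads for the TL controls and 48.4% to 59.4% for the panx1a-/- libraries (two-sided exact permutation p = 0.1, as low as 3 against 3 can give). The genotypes did not overlap in this share, so its part cannot be told apart from that of the genotype.

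Of the 38 members with enough reads to be tested, 6 fell in panx1a-/- larvae (15.8%, against 11.8% of all tested genes) and 2 rose (5.26%, against 9.88%), so neither share stood far from the background. The panx1a-/- libraries differed among themselves, as the plot of every tested member by library shows. Within the panx1a-/- group, replicate 1 was the lowest library for 24 tested members (63.2%, against 30.5% of all tested genes). Replicate 2 was the highest for 22 members (57.9%, against 36.1% of all tested genes), and for 13 members it lay inside the range of the TL controls (34.2%, against 34.3%, so at the background). In both replicates 1 and 3, 23 members were below every TL control (60.5%, against 33.2% of all tested genes), and for 8 of these replicate 2 was not (34.8%, against 27.3%). Values without panx1a-/- replicate 2 are given beside those with all libraries. This library was singled out after its values were seen to lie nearest the TL controls for many members, so larger changes and more calls without it follow in part from that choice and are a description, not support for a member. Leaving out either of the other panx1a-/- libraries left no member called.

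**Figure D1:**
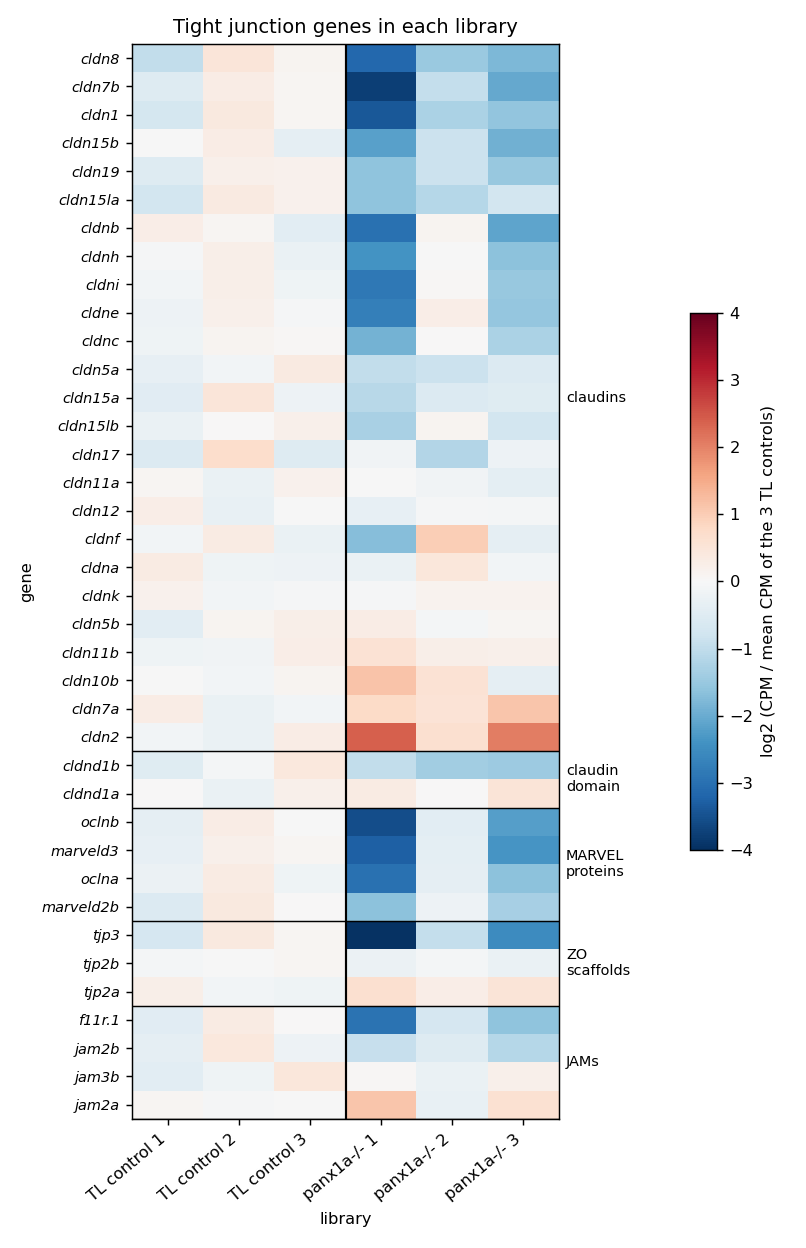
Each row is 1 of the 38 tested members and each column a library; colour gives the log2 ratio of the TMM-normalized CPM to the mean of the 3 TL controls, blue for lower and red for higher. Replicate 1 of the panx1a-/- libraries is the darkest blue, replicate 2 is near the TL controls for members such as *cldnb*, *cldni* and *oclna*, and *cldn2* and *cldn7a* are red in all 3.

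Levels of 38 members were high enough to be tested. The other 6, *cldn10a*, *cldnd*, *cldng*, *cldnj*, *f11r.2* and *marveld1*, had between 0 and 17 counts in any library and were left out by the filter on low counts. Over all 12797 tested genes, the quasi-likelihood test of edgeR (adjusted p-value below 0.05) called 6 members down and 2 up in panx1a-/- larvae. The other 30 members did not pass the test. The median log2 fold change was −0.80 over the members and −0.06 over all tested genes, and 26 members were below 0. The ranges of TL controls and panx1a-/- libraries were separate for 15 members that were lower in panx1a-/- larvae (39.5%, against 24.1% of all tested genes) and for 3 that were higher (7.89%, against 23.4%).

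Without panx1a-/- replicate 2, the same test called 18 members down (47.4%, against 16.0% of all genes tested in that fit) and 3 up (against 12.2%). Of the 8 calls made with all libraries, 7 were kept in this fit and 14 were added. The adjusted p-values of the 8 calls with all libraries lay close to the threshold, between 0.0331 and 0.0466. Without TL control 1 all 8 were kept among 7 down and 3 up calls (17.9% and 18.5% of all genes). No member was called by edgeR's quasi-likelihood test when TL control 2, TL control 3, panx1a-/- replicate 1 or panx1a-/- replicate 3 was left out, where 10, 11, 12 and 9 members had an unadjusted p below 0.05. Over all genes, lower calls were 0.805%, 0.0155%, 0.108% and 0.00771% in those fits, and higher calls 0.294%, 0.00776%, 0.0385% and 0.0231%.

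Claudin 2 rose most. *cldn2* encodes the claudin that forms cation and water pores in leaky epithelia of mammals such as the kidney proximal tubule. Its level was 6.77, 6.05 and 8.93 CPM in TL controls 1 to 3 and 38.3, 11.4 and 29.9 CPM in panx1a-/- replicates 1 to 3. All panx1a-/- libraries were above all TL controls, with replicate 2 the closest to them. The log2 fold change was 1.87 (standard error 0.42, edgeR adjusted p = 0.0331), and 2.24 without panx1a-/- replicate 2 (edgeR adjusted p = 0.00692).

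The other claudin that rose was *cldn7a*, a zebrafish form of claudin 7, which in mammals lies along the sides of gut and kidney epithelial cells. It read 48.3, 32.8 and 36.4 CPM in the TL controls and 66.0, 56.8 and 84.1 CPM in the panx1a-/- libraries. Here the replicate 2 library was again the lowest of the panx1a-/- group, though above every TL control. The log2 fold change was 0.82 (standard error 0.21, edgeR adjusted p = 0.0387), and 0.94 without panx1a-/- replicate 2 (edgeR adjusted p = 0.0227).

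Its duplicate *cldn7b* was at 74.0, 131 and 113 CPM in the TL controls and at 7.77, 54.6 and 25.8 CPM in the panx1a-/- libraries. The genotypes did not overlap, yet the panx1a-/- libraries were spread over a wide range and the test was not passed with all libraries (log2 fold change −1.85, standard error 0.61, edgeR adjusted p = 0.0628). It was passed without panx1a-/- replicate 2, with a log2 fold change of −2.66 (edgeR adjusted p = 0.0157), and with all libraries DESeq2, edgeR's exact test and limma-voom also called *cldn7b* down (adjusted p = 0.00671, 0.0152 and 0.0452). The log2 ratio of *cldn7b* to *cldn7a* within a library, a comparison chosen after the values were seen and free of the scaling between libraries, was 0.62, 1.99 and 1.63 for the TL controls against −3.09, −0.06 and −1.70 for the panx1a-/- libraries. Its mean was 1.41 ± 0.71 and −1.62 ± 1.52 (SD, n = 3 each; two-sided exact permutation p = 0.1, the smallest possible, and 0.15 adjusted over the 6 ratios computed). Every panx1a-/- library had a lower ratio than any TL control. This follows from the separate ranges of *cldn7b*, lower, and *cldn7a*, higher, so the ratio and its p-value add no support. For *cldnd1a* against *cldnd1b*, the same ratio went from 1.28 ± 0.41 to 2.79 ± 0.36 (SD, n = 3 each; exact permutation p = 0.1, adjusted 0.15), again without overlap. The ratio of *cldn5b* to *cldn5a* went from 0.07 ± 0.18 to 0.96 ± 0.33 (SD, n = 3 each; exact permutation p = 0.1, adjusted 0.15). All 6 ratios were chosen after the values were seen. *cldnd1b* and *cldn5a* were already lower without overlap, so their ratios and p-values add no support either. Ratios that overlapped between the genotypes were −0.47 ± 0.15 and −0.86 ± 0.29 for *oclnb* to *oclna* and −2.43 ± 0.40 and −1.53 ± 0.77 for *cldn2* to *cldn7a* (SD, n = 3 each; exact permutation p = 0.2 for both, adjusted 0.2). That of *tjp3* to *tjp2a* is given with the ZO scaffolds below.

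Among the claudins called down, *cldn1* and *cldn8* changed most. Claudin 1 is the claudin that keeps water inside the skin of mammals, and claudin 8 is a sealing claudin of their distal nephron and colon. *cldn1* stood at 58.0, 125 and 100 CPM in the TL controls and at 8.99, 39.0 and 31.6 CPM in the panx1a-/- libraries. No library of one genotype reached the range of the other, and replicate 1 was the lowest. The log2 fold change of *cldn1* was −1.83 (standard error 0.52, edgeR adjusted p = 0.0463), and −2.22 without panx1a-/- replicate 2 (edgeR adjusted p = 0.0313).

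*cldn8*, listed as *cldn8.1* in the RefSeq annotation of the GRCz12tu assembly, measured 5.74, 15.8 and 12.2 CPM in the TL controls and 1.28, 4.04 and 3.27 CPM in the panx1a-/- libraries. The TL controls themselves were spread, without reaching the panx1a-/- range. For *cldn8* the log2 fold change was −1.97 (standard error 0.49, edgeR adjusted p = 0.0363), and −2.32 without panx1a-/- replicate 2 (edgeR adjusted p = 0.0225). Its neighbour on the chromosome, *cldn17*, is listed as *cldn8.3* in the same annotation. This neighbour had only 8 to 26 counts in a library, overlapped between the genotypes and did not pass the test (log2 fold change −0.44, edgeR adjusted p = 0.499).

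Among the claudin 15 genes, which in mammals form sodium pores of the intestine, *cldn15b* and *cldn15la* fell. Claudin 15 is needed in zebrafish for the gut to open a single lumen, and the *cldn15la* promoter is used to mark the intestinal epithelium. *cldn15la* had 13.1, 27.8 and 24.8 CPM in the TL controls and 7.19, 9.99 and 13.1 CPM in the panx1a-/- libraries, where the lowest TL control was below the highest panx1a-/- library. The log2 fold change of *cldn15la* was −1.11 (standard error 0.33, edgeR adjusted p = 0.0466), and without panx1a-/- replicate 2 it was −1.10 and no longer called (edgeR adjusted p = 0.0641). With all libraries, limma-voom did not call *cldn15la* (adjusted p = 0.0519).

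*cldn15b* rested on few reads, at 38, 43 and 32 counts for the TL controls against 8, 22 and 8 for the panx1a-/- libraries. The genotypes did not overlap in CPM, and the log2 fold change was −1.50 (standard error 0.41, edgeR adjusted p = 0.0415). The 2 remaining members of this group, *cldn15a* and *cldn15lb*, were named after their values were seen. Their log2 fold changes were −0.69 and −0.52 (edgeR adjusted p = 0.111 and 0.273), and they did not pass the test, although *cldn15lb* did without panx1a-/- replicate 2 (log2 fold change −0.99, edgeR adjusted p = 0.0374).

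The remaining calls were *cldn19* and *cldnd1b*. Claudin 19 works in the mammalian kidney and retina, where its mutation in humans causes magnesium loss with eye defects. Its counts were 41, 61 and 70 for the TL controls against 18, 33 and 16 for the panx1a-/- libraries. The CPM ranges did not overlap, and the log2 fold change was −1.27 (standard error 0.34, edgeR adjusted p = 0.0387). *cldnd1b*, a gene with a claudin domain, read 4.70, 6.23 and 8.98 CPM in the TL controls and 3.36, 2.55 and 2.43 CPM in the panx1a-/- libraries. Here replicate 2 sat between the other panx1a-/- libraries, and the log2 fold change was −1.25 with all libraries (standard error 0.30, edgeR adjusted p = 0.0336) and −1.18 without replicate 2 (edgeR adjusted p = 0.0409).

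**Figure D2:**
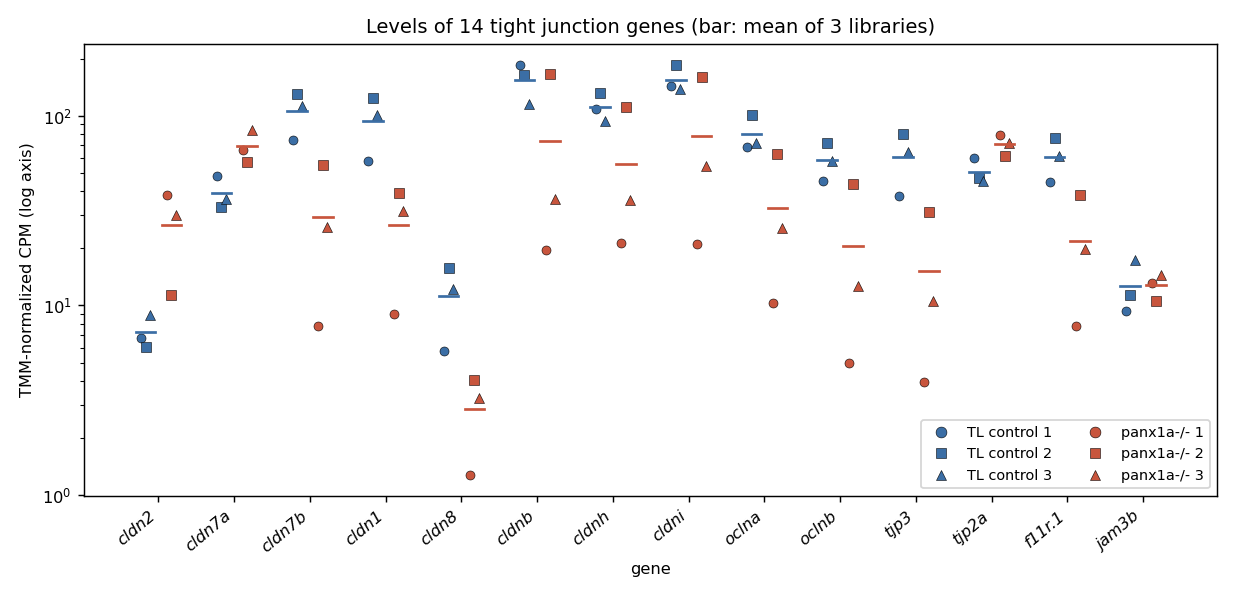
Points give the TMM-normalized CPM of 14 members in each library on a log axis, blue for the TL controls and red for the panx1a-/- libraries with a symbol for each replicate number; bars are means of 3 libraries. For *cldnb*, *cldnh* and *cldni* the red square of panx1a-/- replicate 2 lies within the blue range while the red circle and triangle lie below it.

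The claudins that took the most reads, a count that also depends on transcript length, were *cldnb*, *cldni* and *cldnh*. They belong to a fish group related to mammalian claudins 3 and 4. The promoter of *cldnb* is a standard label of the lateral line primordium. *cldnb* was at 186, 163 and 115 CPM in the TL controls and at 19.7, 166 and 36.2 CPM in the panx1a-/- libraries. *cldni* was at 143, 184 and 137 CPM against 21.2, 159 and 54.4 CPM. *cldnh* was at 108, 132 and 93.3 CPM against 21.3, 111 and 35.7 CPM. In all 3, panx1a-/- replicate 2 lay inside the TL range and replicates 1 and 3 lay below it.

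With all libraries none of the 3 passed the test. The log2 fold changes were −1.07 for *cldnb* (standard error 0.71, edgeR adjusted p = 0.272), −0.99 for *cldni* (standard error 0.62, edgeR adjusted p = 0.250) and −0.99 for *cldnh* (standard error 0.55, edgeR adjusted p = 0.197). Without panx1a-/- replicate 2 they were −2.47, −2.03 and −1.96, all called (edgeR adjusted p = 0.00854, 0.0151 and 0.00868). Summed over the 29 claudins, the level was 898, 1096 and 912 CPM in the TL controls and 325, 894 and 479 CPM in the panx1a-/- libraries. Replicate 2 thus differed from the lowest TL control by little, while replicates 1 and 3 were well below it.

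Several claudins stand next to one another in the genome, as shown by the gene order of the same RefSeq annotation, and these rows were picked out after their values were seen. *cldnh*, *cldnc* and *cldnb* are consecutive genes. *cldnc* had the same order within the panx1a-/- group as the other genes of its row, with 8.87, 32.7 and 13.5 CPM in the panx1a-/- libraries and 29.3 to 35.0 CPM in the TL controls. *cldne*, *cldnf* and *cldna* form another row, and its members were unlike each other. *cldne*, a gene of the outer cell layer of the zebrafish embryo, was at 15.1 and 33.7 CPM in panx1a-/- replicates 1 and 3 and at 118 CPM in replicate 2, above all TL controls (86.7 to 115 CPM).

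*cldnf* had 18 to 126 counts in a library, at 1.04, 6.70 and 2.64 CPM in the panx1a-/- libraries and 2.79 to 4.23 CPM in the TL controls, so replicate 2 was above and replicates 1 and 3 below all TL controls. *cldna* overlapped between the genotypes, at 6.55 to 10.6 CPM in the panx1a-/- libraries and 6.81 to 9.83 CPM in the TL controls. Their log2 fold changes were 0.05 and 0.06 with all libraries and −0.88 and −0.18 without panx1a-/- replicate 2, neither of them called. Neighbouring copies of like sequence can lose or share reads in the counting, so single values within such a row are uncertain.

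Of the claudins of glia and vessels, the 4 named here were not called by edgeR's quasi-likelihood test with TMM factors and all libraries. *cldnk*, which marks myelinating glia in zebrafish, was at 12.1 to 14.7 CPM in the TL controls and 12.9 to 14.5 CPM in the panx1a-/- libraries. The log2 fold change was 0.08 for *cldnk* and −0.18 for *cldn11a*, the counterpart of a claudin of mammalian myelin (standard errors 0.16 and 0.18, edgeR adjusted p = 0.722 and 0.469). For the duplicates of claudin 5, which seals the vessels of the mammalian brain, the log2 fold change was −0.79 for *cldn5a* (edgeR adjusted p = 0.0551) and 0.10 for *cldn5b* (edgeR adjusted p = 0.753). *cldn5a* did not overlap between the genotypes, at 5.84, 6.89 and 9.40 CPM against 3.71, 4.09 and 5.01 CPM, and was called down by DESeq2 (adjusted p = 0.0426) and edgeR's exact test (adjusted p = 0.0320). The quasi-likelihood test also called *cldn5a* down with upper-quartile factors (log2 fold change −0.91, edgeR adjusted p = 0.0434) and in 1 fit with a library left out (edgeR adjusted p = 0.0294). A p-value above the threshold does not show that levels were the same, and these 4 genes were named after their values were seen. They are not a full list of the claudins of glia and vessels, and *cldn19*, called down, was not placed among them. The members not described elsewhere, *cldn10b*, *cldn11b*, *cldn12*, *cldnd1a* and *jam2b*, had log2 fold changes between −0.81 and 0.58, and none of them was called with or without panx1a-/- replicate 2.

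All 4 tested MARVEL genes had log2 fold changes below 0 without passing edgeR's quasi-likelihood test, with a median of −1.38. *oclna* and *oclnb* encode occludin, a strand protein of epithelial and endothelial tight junctions. *oclna* stood at 68.7, 101 and 72.0 CPM in the TL controls and 10.3, 62.5 and 25.6 CPM in the panx1a-/- libraries. *oclnb* stood at 45.1, 71.6 and 57.9 CPM against 4.99, 43.7 and 12.7 CPM. In both, panx1a-/- replicate 2 was just below the lowest TL control, so the genotypes did not overlap.

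The log2 fold changes were −1.29 for *oclna* and −1.50 for *oclnb* (standard errors 0.56 and 0.67, edgeR adjusted p = 0.119 and 0.126), and DESeq2 called both down (adjusted p = 0.0487 and 0.0443). Without panx1a-/- replicate 2 they were −2.16 and −2.72, and both were called (edgeR adjusted p = 0.0126 and 0.00868). *marveld3*, a relative of occludin, was counted 57, 74 and 79 times for the TL controls against 7, 56 and 11 for the panx1a-/- libraries (log2 fold change −1.46, edgeR adjusted p = 0.110). *marveld2b*, a tricellulin gene, whose protein seals the points where cells meet at a corner, neighbours *oclnb*. It had a log2 fold change of −0.91 (edgeR adjusted p = 0.123), with replicate 2 at 9.57 CPM inside the TL range of 7.59 to 14.4 CPM. Without replicate 2, all 4 MARVEL genes were called down, against 16.0% of all genes tested in that fit. Replicate 2 was the highest panx1a-/- library for all 4, so these calls follow in part from leaving it out.

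The 3 listed ZO scaffolds had log2 fold changes on both sides of 0, and none was called by edgeR's quasi-likelihood test with all libraries. The deposited counts held no *tjp1* symbol, so ZO-1 is not covered here. *tjp3* encodes ZO-3, which in mammals is limited to epithelia. It read 37.9, 80.4 and 64.2 CPM in the TL controls and 3.94, 31.2 and 10.6 CPM in the panx1a-/- libraries. The genotypes did not overlap and the log2 fold change was the lowest of all members at −1.99, but with a standard error of 0.67 it was not called (edgeR adjusted p = 0.0650). With all libraries DESeq2, edgeR's exact test and limma-voom called *tjp3* down (adjusted p = 0.00663, 0.0168 and 0.0399). Without panx1a-/- replicate 2 it was −3.07 and called (edgeR adjusted p = 0.0102).

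*tjp2a* and *tjp2b* encode ZO-2, which is found in junctions of many cell types, endothelia and the heart included. *tjp2a* was higher in every panx1a-/- library, at 79.4, 61.4 and 71.9 CPM against 59.5, 47.0 and 45.3 CPM, and did not pass the test (log2 fold change 0.49, edgeR adjusted p = 0.0778). *tjp2b* was at 55.4 to 61.8 CPM in the TL controls and 48.8 to 55.4 CPM in the panx1a-/- libraries (log2 fold change −0.18, edgeR adjusted p = 0.341), which became 0.04 when libraries were scaled by their size alone. The log2 ratio of *tjp3* to *tjp2a* within a library was also chosen after the values were seen. It was 0.21 ± 0.76 for the TL controls and −2.69 ± 1.68 in the panx1a-/- libraries (SD, n = 3 each, with exact permutation p = 0.1, adjusted 0.15). As *tjp3* was lower and *tjp2a* higher without overlap, the separation of this ratio was fixed beforehand and adds no support.

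**Figure D3:**
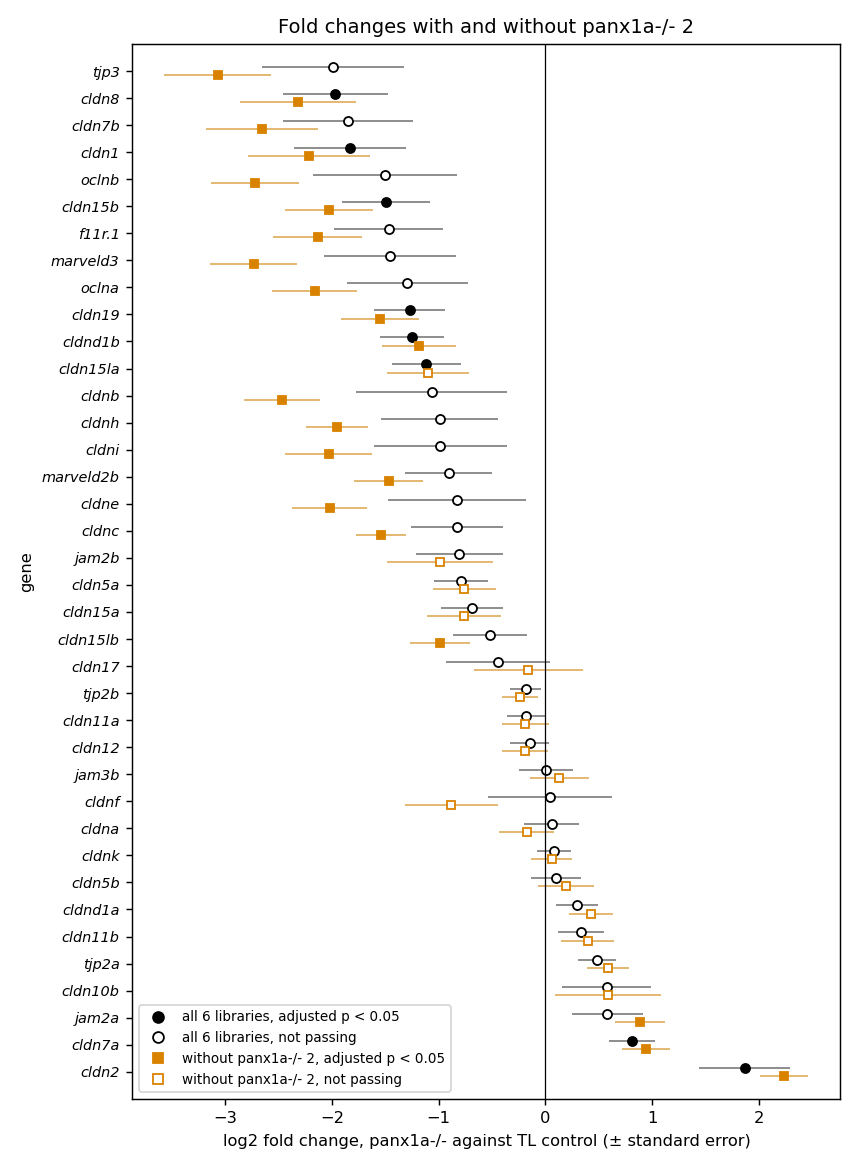
Log2 fold changes of the 38 tested members with standard errors, black circles for all 6 libraries and orange squares without panx1a-/- replicate 2; filled symbols have an adjusted p-value below 0.05 in edgeR's quasi-likelihood test. The filled black symbols are 6 members below 0 and 2 above, and without replicate 2 the filled orange symbols are 18 below and 3 above.

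None of the 4 tested JAM genes was called by edgeR's quasi-likelihood test with all libraries. *f11r.1*, a gene for JAM-A of epithelia, stood at 44.8, 76.0 and 61.4 CPM in the TL controls and at 7.77, 38.0 and 19.9 CPM in the panx1a-/- libraries. The ranges did not overlap, and the log2 fold change was −1.47 (standard error 0.51, edgeR adjusted p = 0.0695), or −2.14 and called without panx1a-/- replicate 2 (edgeR adjusted p = 0.0144). DESeq2, edgeR's exact test and limma-voom called *f11r.1* down with all libraries (adjusted p = 0.0154, 0.0220 and 0.0478). *jam2a* and *jam3b* are known in zebrafish for the pairing that lets muscle precursors fuse. *jam3b* overlapped between the genotypes, at 9.40 to 17.3 CPM and 10.5 to 14.5 CPM (log2 fold change 0.01, edgeR adjusted p = 0.988).

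*jam2a* was at 6.23, 5.74 and 5.83 CPM in the TL controls and at 12.8, 4.78 and 9.11 CPM in the panx1a-/- libraries. Replicates 1 and 3 were above and replicate 2 below all TL controls. Its log2 fold change was 0.58 (standard error 0.34, edgeR adjusted p = 0.208) with all libraries and 0.89 without replicate 2, where it was called (edgeR adjusted p = 0.0301).

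Partners of the tight junction were listed by symbol from their roles, with earlier results of these data known. They gave 7 down and 3 up calls among 53 tested genes (13.2% and 5.66%, against 11.8% and 9.88% of all tested genes, so near the background). Their median log2 fold change was −0.27. None of the 4 angulin genes, which recruit tricellulin to cell corners, was called. Their log2 fold changes were −1.29 for *lsr*, −1.43 for *ildr1a*, −0.86 for *ildr1b* and 0.66 for *ildr2*. Among them *ildr1a* stood at 4.75, 28.5 and 8.13 CPM in the panx1a-/- libraries and 29.9 to 48.0 CPM in the TL controls. *ildr2* went the other way and was above every TL control in each panx1a-/- library. None of the 5 cytoplasmic plaque genes and none of the 4 other immunoglobulin-type genes was called either. The lists are covered in part only. The deposited counts held 5 of 22 plaque symbols, 4 of 10 immunoglobulin-type symbols, 4 of 6 angulin symbols, 11 of 22 adherens junction symbols, 20 of 26 polarity symbols and 11 of 15 regulator symbols. Without panx1a-/- replicate 2, 3 angulin genes, 1 plaque gene and 1 immunoglobulin-type gene were called down and 1 immunoglobulin-type gene up. In that fit 16.0% of all genes were called lower and 12.2% higher. Of 11 adherens junction genes, 4 fell and 1 rose (36.4% and 9.09%, against 11.8% and 9.88% of all tested genes). The largest of these changes was in *vclb*, a vinculin gene, with a log2 fold change of −1.19 (edgeR adjusted p = 0.0461). E-cadherin (*cdh1*), not called with all libraries, was at 10.5, 87.4 and 27.4 CPM in the panx1a-/- libraries and 98.1 to 146 CPM in the TL controls. Its log2 fold change was −1.49 (edgeR adjusted p = 0.123), and −2.63 without panx1a-/- replicate 2 (edgeR adjusted p = 0.00941). Of the other genes of this list not called with all libraries, *cdh2*, *ctnnb1* and *ctnnb2* were above all TL controls in every panx1a-/- library (log2 fold changes 0.59, 0.61 and 0.58). *jupa* was below them in every one (−1.05) and *nectin1a* overlapped.

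Among 19 tested polarity genes, 1 fell and 1 rose (5.26% each, against 11.8% and 9.88% of all tested genes). The up call and larger change was *crb2b*, a Crumbs gene needed for apical membranes, with a log2 fold change of 1.15 (edgeR adjusted p = 0.0344). Among 10 transcription regulators of epithelia, 2 fell and 1 rose (20% and 10%, against 11.8% and 9.88% of all tested genes). The Grainyhead-like genes *grhl2b* and *grhl2a*, whose mammalian counterpart switches on claudin genes, had log2 fold changes of −1.77 and −1.34 (edgeR adjusted p = 0.0409 and 0.0279). *zeb2a*, counterpart of a mammalian repressor of E-cadherin, rose with a log2 fold change of 1.10 (edgeR adjusted p = 0.0387). From the same list, *zeb1b*, *zeb2b*, *snai1a* and *snai2* were not called with all libraries. Their log2 fold changes were 0.54, −0.42, −0.27 and −0.71, so they lay on both sides of 0.

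Markers of the tissues that carry these junctions were read beside the members. Of 12 skin markers, 5 fell and none rose with all libraries (41.7% lower, against 11.8% of all tested genes). Without panx1a-/- replicate 2 all 12 fell, against 16.0% of all genes tested in that fit. That library was singled out after values were seen, so this count is a description only. The largest change among them was in the keratin gene *cyt1* (log2 fold change −2.94, edgeR adjusted p = 0.0298). Their summed level was 17555 to 42103 CPM in the TL controls and 2473 to 8102 CPM in the panx1a-/- libraries, and no skin marker was at 0 in any library. Their sums were 2473, 8102 and 6400 CPM in panx1a-/- replicates 1 to 3. The summed claudins had the same order, but it was not particular to skin, as the summed enterocyte markers had it too (440, 894 and 730 CPM). In replicate 2 the skin sum was far below the lowest TL control (8102 against 17555 CPM). The claudin sum was close to it (894 against 898 CPM). The basal skin regulator *tp63* was at 7.59, 42.8 and 13.6 CPM and the epithelial adhesion gene *epcam* at 10.6, 105 and 25.9 CPM, against 41.6 to 56.6 CPM and 78.1 to 135 CPM in the TL controls. Most of the list was unlike them. Apart from *tp63*, *epcam* and *pkp3a*, every skin marker was below all TL controls in each panx1a-/- library. In replicate 2, for example, *krt4* was at 1748 CPM, against 4191 CPM in the lowest TL control.

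Ionocytes are the salt-transporting cells of the larval skin. Of 8 tested ionocyte markers 5 fell (62.5%, against 11.8% of all tested genes). Among them were the defining factor *foxi3b* (log2 fold change −3.02, edgeR adjusted p = 0.0298) and, with the largest change, the sodium chloride cotransporter gene *slc12a10.2* (log2 fold change −3.16, edgeR adjusted p = 0.0262). The summed level of all ionocyte markers, 252 to 338 CPM in the TL controls against 226 to 335 CPM, overlapped. The broadly used genes *atp6v1aa* and *ca2* made up most of it in every library, and *trpv6* and *ceacam1* were listed at 0 in every library. *atp6v1aa* and *ca2* went the other way, with log2 fold changes of 0.53 and 0.59 (edgeR adjusted p = 0.121 and 0.104). Without panx1a-/- replicate 2, 6 ionocyte markers were called down and 1 up, *ca2* (log2 fold change 0.81, edgeR adjusted p = 0.0271). In that fit 16.0% of all genes were called lower and 12.2% higher. With all libraries none of the 10 enterocyte markers was called, though their summed level of 440 to 894 CPM in the panx1a-/- libraries lay below the 912 to 2213 CPM of the TL controls. The largest part of that sum in every library was *fabp6*. It was at 602, 1307 and 1010 CPM in the TL controls and 152, 601 and 236 CPM in the panx1a-/- libraries. Without panx1a-/- replicate 2, *fabp6* was the 1 enterocyte marker called down (log2 fold change −2.32, edgeR adjusted p = 0.0107). Apart from *fabp6* and *apoa4b.1*, every enterocyte marker overlapped between the genotypes. Liver markers were uneven among the TL controls, with 115, 939 and 339 CPM in sum. Of 10 liver markers, 1 was called down (10%, against 11.8% of all tested genes, so near the background). It was *serpina1* (log2 fold change −2.79, edgeR adjusted p = 0.0481), a call lost without panx1a-/- replicate 2.

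None of the 10 pronephros markers and none of the 9 myelin glia markers was called with all libraries. Without panx1a-/- replicate 2, 1 pronephros marker was called down, *cdh17* (log2 fold change −1.06, edgeR adjusted p = 0.0372), against 16.0% of all genes tested in that fit. Of 10 endothelial markers, 2 fell with all libraries (20.0%, against 11.8% of all tested genes) and 0 without panx1a-/- replicate 2. For *kdrl* the log2 fold change was −1.19 (edgeR adjusted p = 0.0451, and 0.0643 without that library). Of 11 inner ear and lateral line markers 3 rose and 2 fell (27.3% and 18.2%, against 9.88% and 11.8% of all tested genes). The largest of these changes was in *s100t* (log2 fold change −2.26, edgeR adjusted p = 0.0325). In whole-larva RNA, fewer cells of a tissue and less RNA per cell cannot be told apart. The part of these markers in the levels of the members was not tested.

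**Figure D4:**
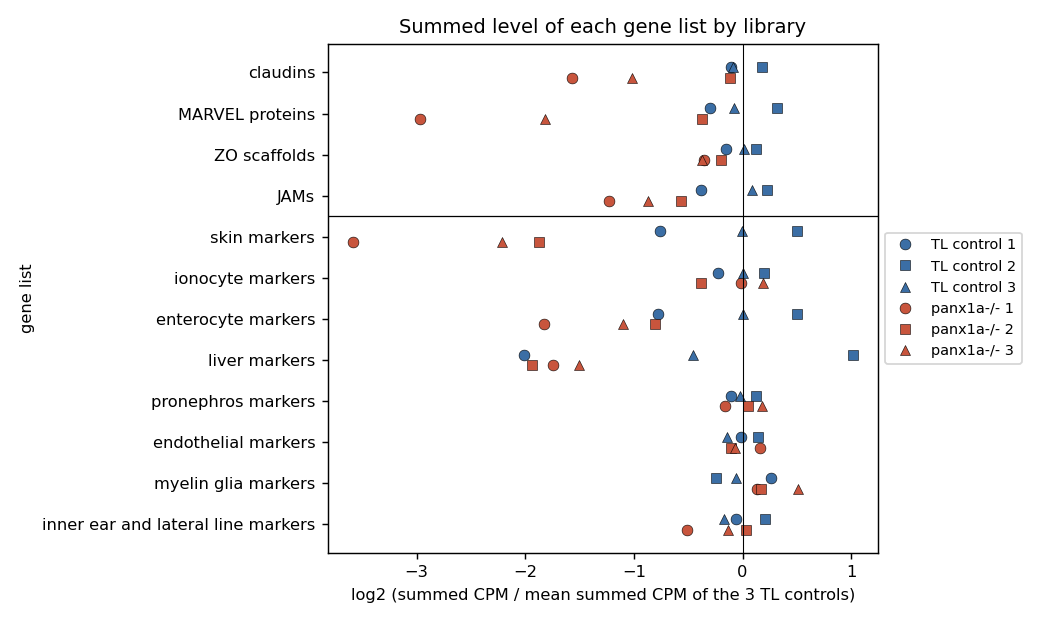
Summed CPM of the junction gene families (above the line) and of the tissue marker lists (below) in each library, as the log2 ratio to the mean of the 3 TL controls. Claudins, MARVEL genes, ZO scaffolds, JAMs, skin markers and enterocyte markers are lowest in panx1a-/- replicates 1 and 3. Pronephros and endothelial markers overlap between the genotypes.

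The scaling between libraries bears on all of these values. Relative to TMM, upper-quartile factors moved the median log2 fold change of all tested genes from −0.06 to −0.17 and that of the members from −0.80 to −0.91. Library size as the only scaling moved them to 0.17 and −0.56, and 2 of the 8 calls were kept, *cldn2* up and *cldn8* down (4.74% of all genes lower and 8.02% higher). When the share of reads on no annotated gene entered the fit as a covariate, no member was called by edgeR's quasi-likelihood test and 0 had an unadjusted p below 0.05. The median log2 fold change in that fit was −0.12 over the members and −0.0039 over all tested genes. Of all genes, 0.00781% were called. DESeq2 called 12 members down and 2 up (16.1% and 15.3% of all genes), and edgeR's exact test 10 and 2 (17.5% and 13.3%). By limma-voom 8 members were called down and 2 up, against 1511 and 1337 of the 12797 tested genes, and 7 of the 8 calls were kept.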

How the data were processed

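For every library the authors deposited whole, unnormalized read counts by gene symbol, as HTSeq writes them, with 5 closing rows of unassigned reads that stayed out of library sizes. The submitters' processing notes name bcl2fastq 2.17, FastQC 0.11.2, Trim Galore 0.4.4, TopHat2 2.0.11, HTSeq 0.6.1p2 and the build danRer11. The library kit keeps strand, but the strand setting of the counting and the annotation are not given in the sources used here, so reads of overlapping genes may be misassigned. The study's own comparison also used edgeR.

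Groups came from the sample titles. Genes were filtered with edgeR's default low-count filter, scaled with TMM factors and fitted with robust quasi-likelihood over all genes, genotype being the only factor, with Benjamini-Hochberg adjustment over all 12797 tested genes and a threshold of 0.05 (R 4.3.3, edgeR 4.0.16, limma 3.58.1, DESeq2 1.42.0, Python 3.11.15, scipy 1.17.1). Standard errors are the log2 fold change divided by the square root of F. Fits were tested on simulated data. All 44 symbols were matched by symbol or synonym to RefSeq genes of GRCz12tu, used for gene order and names only.

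The members and lists were chosen with earlier results of these data known. Genes were named where called, where the genotypes did not overlap with a log2 fold change of at least 1 in size, as the 3 members of a family with the highest CPM, or as a neighbour of a called member, and each list by its called gene with the largest change. Other genes were named after their values were seen. Levels were not compared between genes, as no transcript lengths were used. Libraries of a genotype differed by more than sampling noise and were kept as separate samples. Alternatives were other tests, scalings and filters, the replicate number as a block, the covariate named in the report, and leaving out each library.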

Additional observations from a re-analysis of the deposited data

How the results depend on the processing

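Of the 23 members named by rule, *jam3b*, *cldn17*, *marveld2b* and *tjp2b*, none of them called, turned direction under some alternative, and the others kept it wherever they had a value (20 of 23 with at least 10 counts in every library). *jam3b* turned to −0.11 with upper-quartile factors, −0.022 with at least 10 counts in every library, and −0.17, −0.08, −0.01 and −0.09 without TL control 1, TL control 2, panx1a-/- replicate 1 and panx1a-/- replicate 3. *cldn17* ranged from −0.65 to 0.07 (0.070 without TL control 2) with a library left out, *tjp2b* turned to 0.040 with library size only, and *tjp2b* and *marveld2b* to 0.010 and 0.37 with the covariate. Over all 38 tested members 8 turned with the covariate, among them *cldne* to 0.32, *cldn15lb* to 0.24 and *cldnc* to 0.015, 3 with library size only and 5 with upper-quartile factors. DESeq2 called 12 members down and edgeR's exact test 10, both with all 8 calls kept, and DESeq2 called 1961 genes up in all. Library size only left 1 member down and 1 up, with 607 genes down. That covariate, the share of reads on no annotated gene, left 0 members down, 0 up, 1 gene down and 0 up, and *panx1a* at −2.38 (edgeR adjusted p = 0.574). The genotypes do not overlap in it. Leaving out a library gave 0 to 18 members down, 0 to 3 up, 1 to 2316 genes down, 1 to 2392 up, and *panx1a* between −2.90 and −2.62. The targeted gene *panx1a* itself was not called without TL control 3 or without panx1a-/- replicate 3 (edgeR adjusted p = 0.0637 and 0.0649). The share itself differed by 15.4 to 22.6 percentage points with a library left out.

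Deviations of same-numbered libraries from their group means correlated with r = 0.12, 0.30 and 0.08 across genes. Those of libraries with different numbers correlated with r = −0.21 to 0.14. The labels name no pairs and the main fit took none. Whether libraries of one number share a batch was not tested. With the replicate block, 14 members were called down and 2 up (16.7% and 13.6% of all genes), and TL control 1 correlated best with another number (r = 0.14). The cause of these changes was not tested.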
